A study of Homo sapiens with 2 samples.

Results

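The aminoacyl-tRNA synthetases, the enzymes that charge each tRNA with its amino acid, were examined in A375 cells after siRNA against THOC2. The members were 36 genes named for these enzymes, 20 for the cytosolic and 16 for the mitochondrial set, and every probe carrying their symbols in the deposited normalized table was taken. They had 41 probes of the 58199 on the array, and 36 of its 34757 gene symbols. The rule for taking them uses no measured value.

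A375 is a human melanoma cell line, and THOC2 is a subunit of the THO complex, which couples transcription to mRNA packaging and export. Total RNA was taken 48 h after transfection, from 1 sample given si-THOC2 and 1 given the negative control siRNA (NC), and each was hybridized with a single dye to 1 Agilent array of 60-base probes on a shared slide. The methods list 4 THOC2 siRNAs and do not name the one used for the array. With 1 array per condition there was no replicate check, so no p-value could be given and every difference below compares 2 arrays. In RNA from a whole culture, fewer cells of a kind and less RNA per cell cannot be told apart.

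The labels of both samples conflict, since the title and description name one condition and the source name the other. The title and description were followed, and THOC2 was lower on the array they assign to THOC2 siRNA. One THOC2 probe had signals of 136 (NC) and 40.9 (THOC2 siRNA), a log2 fold change of -1.42. The other had 67.3 and 35.1, a log2 fold change of -0.63. All fold changes are THOC2 siRNA minus NC on the log2 scale, after the 75th percentile of each array was subtracted. The growth medium also differs between the labels and the methods.

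A synthetase recognises its own amino acid and joins it to the matching tRNA using ATP. Cytosolic and mitochondrial protein synthesis use separate sets, mostly from separate genes, although GARS and KARS each supply both compartments. Several cytosolic enzymes sit in a large multisynthetase complex held together by scaffold proteins. Many cytosolic synthetase genes are known targets of ATF4, the transcription factor of the amino acid response, and WARS is known to be induced by interferon gamma.

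The 2 arrays gave close values for most synthetase genes. No member probe differed by 2-fold in either direction, while of all 22207 probes that both arrays measured well above background 0.365% were lower and 0.829% higher by as much. A smaller threshold, a log2 fold change of 0.32 in either direction, was used as well. Past it, 2 of the 40 member probes measured on both arrays were lower, IARS probe 1 and SARS probe 1, against 10.4% of all such probes. At the same size 1 member probe was higher, that of QARS, against 13.6%. Most members are bright, and 35 of the 40 had a log2 signal over 8 on each array. Among the 9586 probes that bright, 3.9% were lower and 8.27% higher by 0.32.

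The precision of 1 array was read from probes spotted several times. The technical SD of a log2 fold change was 0.06 for a log2 signal over 8, 0.11 for 6 to 8 and 0.29 for 4 to 6. These are medians over 244, 36 and 6 such probes, with 95th percentiles of 0.11, 0.21 and 0.42. The technical SD covers spots on these arrays and not a second culture. Of the cytosolic probes, 17 of 25 lay further than 2 technical SDs from the median of all probes, against 40.4% of all probes and 52.8% of the bright ones. Of the mitochondrial probes 5 of 15 did.

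**Figure D1:**
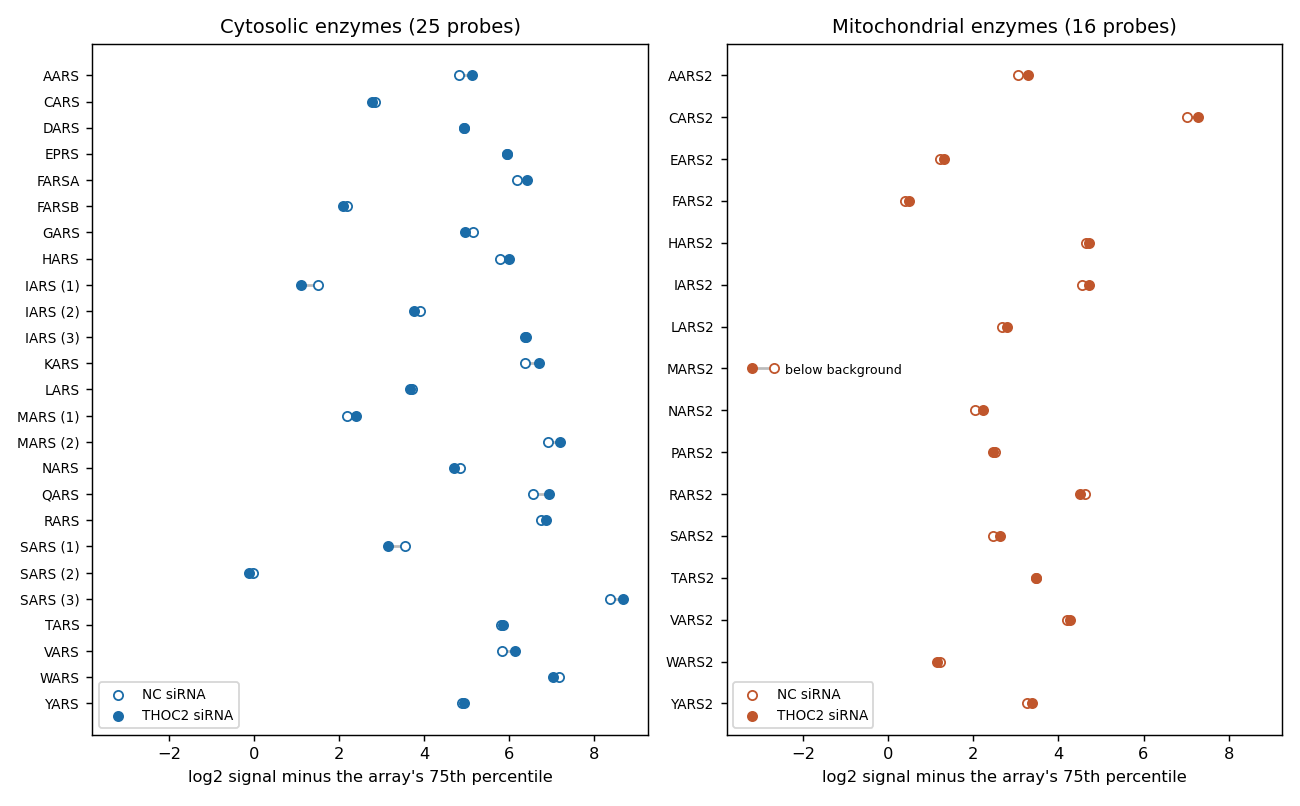
Level of each synthetase probe on both arrays, as log2 signal minus the 75th percentile of that array, for cytosolic (left) and mitochondrial (right) enzymes, with open circles for NC and filled circles for THOC2 siRNA. Probes of 1 gene are numbered in parentheses, MARS2 is below background, and for most probes the circles touch or overlap.

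Taken as genes (the mean over a gene's probes), the 20 cytosolic synthetases had a median log2 fold change of 0.022, between -0.20 and 0.39, with 8 below 0 and 12 above. This median lay below 0 after quantile, lowess, normexp or block-wise normalization and with the authors' values (down to -0.058). It also did when the 75th percentile was taken over probes on both arrays, so its side of 0 is not settled. The 15 measured mitochondrial genes had a median of 0.10, between -0.12 and 0.26, with 4 below 0 and 11 above. That median was 0.041 with the 75th percentile of probes on both arrays and 0.036 after normexp. The median of all 15647 genes measured on both arrays was 0.040, and their middle 50% ran from -0.12 to 0.20. The median of the 7153 genes with a mean log2 signal over 8 was 0.061. The cytosolic median minus that of all genes was -0.018. In the alternatives this difference lay between -0.21 (no background filter) and 0.0033 (brightest probe of a gene). At the gene level 1 of the 35 measured synthetases (2.86%), QARS, was higher by 0.32 or more and 0 were lower, against 12.5% and 9.67% of all genes. Of the 7153 brighter genes, nearer in signal to most synthetases, 7.63% were higher and 4.31% lower by as much. Values below 0 were 40% of the cytosolic and 26.7% of the mitochondrial genes, against 43.2% of all genes and 37.1% of the brighter ones. Before scaling, 39 of the 41 probes had a lower signal on the THOC2 siRNA array, whose 75th percentile was 79.2 against 98.1 on the NC array. The share of all probes with a lower unscaled signal is not given here.

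**Figure D2:**
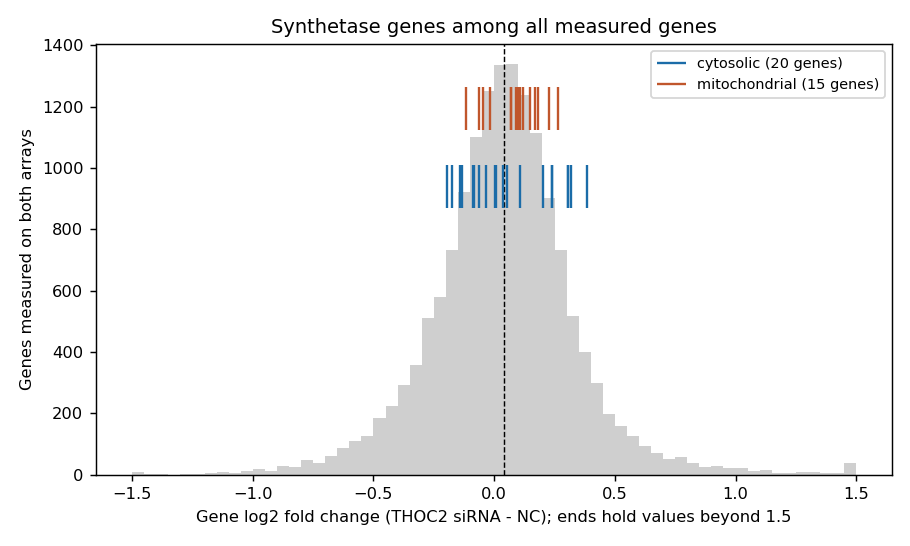
Log2 fold change (THOC2 siRNA minus NC) on the x axis against the number of genes measured on both arrays (grey), with a tick for each cytosolic (blue) and mitochondrial (orange) synthetase gene and a dashed line at the median of all genes, 0.040. The synthetase ticks lie between -0.20 and 0.39, inside the main body of genes.

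The highest cytosolic values were those of QARS, KARS, AARS, VARS and FARSA. QARS, the glutaminyl enzyme and part of the multisynthetase complex, has its probe at chr3:49133370-49133429 (hg19). Its signal was 9178 under NC and 9671 under THOC2 siRNA, and the log2 fold change was 0.39. QARS and KARS were the only synthetases whose signal was higher on the THOC2 siRNA array before scaling. KARS, which encodes the lysyl enzyme, had 8175 and 8222 and a log2 fold change of 0.318, just short of the threshold. Under quantile normalization QARS too was short of it, at 0.31.

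AARS, the alanyl enzyme, had a signal of 2787 on the NC array and 2781 on the other, a log2 fold change of 0.31. VARS, the valyl enzyme, had 5599 and 5580 (0.30). FARSA, the catalytic subunit of the phenylalanyl enzyme, had 7094 and 6763 (0.24). Its partner subunit FARSB had 445 and 339, a log2 fold change of -0.08, so the subunits of this single enzyme lay on opposite sides of 0.

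The lowest single-probe cytosolic genes were GARS, WARS and NARS. GARS, the glycyl enzyme, had a signal of 3470 under NC and 2445 under THOC2 siRNA (-0.20). WARS, the tryptophanyl enzyme, had 14083 and 10294 (-0.14). NARS, the asparaginyl enzyme, had 2801 and 2062 (-0.13). None of them reached the 0.32 threshold.

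The NARS probe was spotted 10 times on each array, which shows the spread directly. On the NC array its spots ran from 2628 to 2982 around a median of 2822, a CV of 3.79%. On the THOC2 siRNA array they ran from 1723 to 2194 around 2110, a CV of 7.19%. The unscaled spots of the 2 arrays did not overlap. After scaling they did, with log2 values of 4.74 to 4.93 on the NC array and 4.44 to 4.79 on the other. The scaled medians were 4.846 (NC) and 4.736 (THOC2 siRNA). The technical SD of the NARS fold change, 0.019, is the value for bright probes scaled to 10 spots. It does not use the spread of these spots, which was wider on the THOC2 siRNA array. Their log2 values had an SD of 0.055 (NC) and 0.11 (THOC2 siRNA).

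The other cytosolic genes with 1 probe lay between CARS at -0.09 and HARS, the histidyl enzyme, at 0.20. CARS, the cysteinyl enzyme, had a signal of 709 under NC and 539 under THOC2 siRNA. LARS (leucyl) was at -0.04, DARS (aspartyl) at 0.0045 and EPRS, a fused glutamyl and prolyl enzyme, at 0.0087. TARS (threonyl), YARS (tyrosyl) and RARS (arginyl) followed at 0.04, 0.05 and 0.11. The LARS, DARS, EPRS, TARS and YARS values were within their technical SD of 0.

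**Figure D3:**
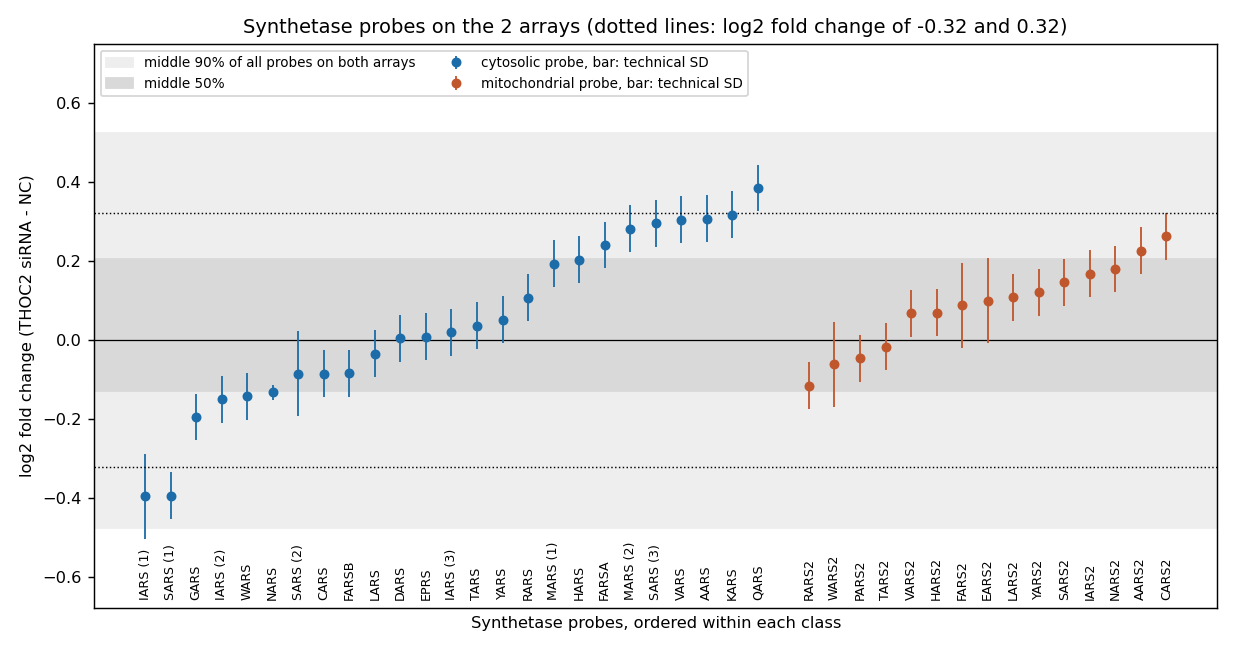
Log2 fold change of each synthetase probe measured on both arrays, ordered within the cytosolic (blue) and mitochondrial (orange) sets, with bars for the technical SD and dotted lines at the threshold of 0.32 on either side of 0. IARS probe 1 and SARS probe 1 lie under the lower line and QARS above the upper one, all within the light band that holds the middle 90% of all probes. For probes with a log2 signal over 8 on each array, the middle 90% (not drawn) ran from -0.29 to 0.383. SARS probe 1 (-0.39) and QARS (0.385), both that bright, lie outside that range.

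IARS, SARS and MARS had several probes, and within a gene the probes gave different values. The 3 IARS probes belong to a single RefSeq record. IARS probe 1, the most 5′, lies at chr9:95043107-95043166 on the minus strand of hg19 and had a signal of 278 under NC and 170 under THOC2 siRNA (-0.40, technical SD 0.11). IARS probe 2, at chr9:94991283-94991342, had 1465 and 1065 (-0.15, technical SD 0.06). IARS probe 3, at chr9:94972871-94972930, had 8166 and 6679 (0.02, technical SD 0.06). For the isoleucyl enzyme the fold change thus became less negative toward the 3′ end, over 70.2 kb of genome and a range of 0.42. The median of all probes in the same block of the array was -0.02, -0.01 and 0.08 for probes 1, 2 and 3.

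The 3 SARS probes, for the seryl enzyme, carry 3 different RefSeq records. SARS probe 1, at chr1:109759720-109759779 on the plus strand and annotated to a noncoding transcript, had 1147 under NC and 704 under THOC2 siRNA (-0.39). SARS probe 2, at chr1:109779432-109779491 and annotated to a predicted transcript, had 96.2 and 73.1 (-0.09). SARS probe 3, at chr1:109780709-109780768, had 32592 and 32279 (0.30). These probes disagree by 0.69, more than the threshold used above, and the SARS mean of -0.06 hides that. Whether they read different transcripts was not tested. MARS, the methionyl enzyme, had 2 probes 26.3 kb apart that gave 0.19 (450 and 415) and 0.28 (11737 and 11516), and their mean was 0.24.

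The probes with the 2 lowest values, and the middle IARS probe of the same record, have the following sequences. They are shown because they are the part of each transcript that these low values report on, and all letters are lower case because no stretch within them is singled out.
IARS probe 1: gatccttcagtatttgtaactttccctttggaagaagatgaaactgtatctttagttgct
IARS probe 2: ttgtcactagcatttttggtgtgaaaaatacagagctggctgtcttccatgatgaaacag
SARS probe 1: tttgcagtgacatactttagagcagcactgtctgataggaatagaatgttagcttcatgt

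Probes that differ within a gene were common on these arrays. Of 2493 genes with several measured probes on 1 RefSeq record, 19% had probes more than 0.4 apart, and among the 776 bright ones 5.28% did. The most 3′ probe was the higher one in 42.6% of the 2493 genes, with a median 3′ minus 5′ difference of -0.04. A rise toward the 3′ end, as in IARS, was therefore not the general direction.

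**Figure D4:**
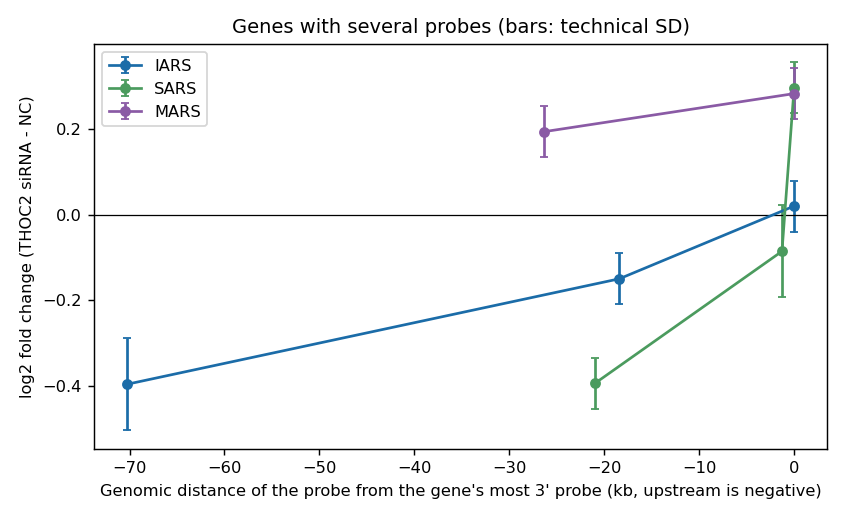
Log2 fold change of each IARS, SARS and MARS probe against its genomic distance in kb from the most 3′ probe of the gene, with bars for the technical SD. The values run from -0.40 to 0.02 in IARS, from -0.39 to 0.30 in SARS and from 0.19 to 0.28 in MARS.

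The mitochondrial synthetases had an SD over probes of 0.11 and the cytosolic ones of 0.22, a difference that was not tested. The bright probes of all genes had an SD of 0.22. The 5 largest mitochondrial values were all above 0. CARS2, the mitochondrial cysteinyl enzyme, had a signal of 12672 under NC and 12268 under THOC2 siRNA (0.26). AARS2 (alanyl) had 815 and 769 (0.23), and NARS2 (asparaginyl) had 405 and 370 (0.18). IARS2 (isoleucyl) followed with 2313 and 2097 (0.17) and SARS2 (seryl) with 543 and 485 (0.15). None reached 0.32.

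The lowest mitochondrial value was that of RARS2, the arginyl enzyme, with a signal of 2413 under NC and 1797 under THOC2 siRNA (-0.12). WARS2 (tryptophanyl), PARS2 (prolyl) and TARS2 (threonyl) were at -0.06, -0.05 and -0.02. VARS2 (valyl) and HARS2 (histidyl) were both at 0.07, FARS2 (phenylalanyl) at 0.09 and EARS2 (glutamyl) at 0.10. LARS2 (leucyl) was at 0.11 and YARS2 (tyrosyl) at 0.12. MARS2, the methionyl enzyme, had signals of 15.4 and 8.57 and was not well above background on either array, so no fold is given.

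The cytosolic median was 0.077 lower than the mitochondrial one. This difference was between -0.12 and -0.056 in the 10 alternatives tried. Those that scale to another percentile shift both medians alike, so they could not change it. Quantile normalization and the authors' values are nearly the same (both -0.12). The difference could not be tested with 1 array per condition. The grouping of the enzymes by their catalytic fold separated little. The 9 cytosolic class I enzymes had a median of 0.05 and the 10 class II enzymes 0.02. The 8 enzymes of the multisynthetase complex had a median of 0.06, with 2 below 0, and the 12 outside it -0.01, with 6 below 0. Among all genes 43.2% were below 0. These groups were drawn up after the values were seen.

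Several promoters of the cytosolic set hold a sequence that the choice of members did not use. The letters TGATGNAA, read on both strands, mark the element bound by ATF4 with a C/EBP partner, and were searched from 250 bases before to 50 bases after each gene start in RefSeq promoters of GRCh38.p14. Of the 36 members, 30 had a promoter there. The letters occurred for 7 of 16 cytosolic genes (43.8%) and 1 of 14 mitochondrial genes (7.14%), against 4.46% of 27305 genes. A match describes the letters only. Windows of 30 bases around the cytosolic matches are shown for reading how alike they are, with the matched letters in capitals and each written along the strand of its gene, where TTGCATCA or TTTCATCA is the match on the other strand. TARS, GARS and MARS lie on the plus strand, and IARS, CARS, AARS and NARS on the minus strand.
TARS, chr5:33440956-33440985: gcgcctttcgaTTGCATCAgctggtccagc
GARS, chr7:30594834-30594863: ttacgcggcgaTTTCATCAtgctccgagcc
IARS, chr9:92293692-92293721: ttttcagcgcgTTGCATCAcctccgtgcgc
CARS, chr11:3057407-3057436: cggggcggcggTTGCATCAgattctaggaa
MARS, chr12:57488053-57488082: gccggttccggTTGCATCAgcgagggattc
AARS, chr16:70289675-70289704: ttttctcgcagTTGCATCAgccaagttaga
NARS, chr18:57621804-57621833: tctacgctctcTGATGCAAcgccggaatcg

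The 7 cytosolic genes with these letters had a median log2 fold change of -0.09, between -0.20 (GARS) and 0.31 (AARS), with 4 below 0. The 9 without them in these windows had a median of 0.11, between -0.14 (WARS) and 0.39 (QARS), with 3 below 0. Among all genes 43.2% were below 0. The ranges overlapped over most of their length. The single mitochondrial match, in YARS2, lay 197 bases before the gene start, and its value was 0.12.

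The core of the interferon-stimulated response element, also read on both strands, occurred for 1 cytosolic gene (6.25%) and 1 mitochondrial gene (7.14%), against 4.38% of all genes. The cytosolic one was WARS, the member known to be induced by interferon gamma, and its window is shown for that reason with the match in capitals. The mitochondrial one was EARS2. The WARS letters lie 55 bases before the gene start, on the minus strand.
WARS, chr14:100375384-100375413: ttttcagaaggGAAACTGAAAgaaagaggg

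Other genes of the pathways these elements serve were read from lists of textbook targets. In the amino acid response list, 27 of 27 genes were measured, with a median of 0.03 that fell below 0 under 6 of 9 alternatives. In it 2 genes were lower by 0.32 or more (7.41%, against 9.67% of all genes) and 0 higher (against 12.5%). ATF4, the factor itself, had a signal of 94541 under NC and 82202 under THOC2 siRNA (0.11). ASNS, asparagine synthetase and a textbook ATF4 target, had 70276 and 62040 (0.13). The 2 lower genes were STC2, a secreted glycoprotein, with 243 and 125 (-0.65), and DDIT3, the stress transcription factor CHOP, with 3075 and 1857 (-0.42).

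Of the interferon gamma list, 14 of 18 genes were measured and their median was -0.10, with 10 below 0 (71.4%, against 43.2% of all genes). At 0.32 or more, 4 were lower (28.6%, against 9.67%) and 1 higher (7.14%, against 12.5%). The lower ones were the chemokine CXCL11 (-0.80, signals of 88.2 and 41.0), the transcription factor IRF9 (-0.43, 311 and 186), the guanylate-binding protein GBP4 (-0.41, 60.6 and 36.8) and the MHC class II activator CIITA (-0.38, 1549 and 963). GBP2, of the same family as GBP4, was higher (0.35, 54.2 and 55.9). WARS, at -0.14, lay close to the median of this list. CXCL11, GBP2 and GBP4 are dim, with a technical SD of 0.29, and IRF9 was at 0.33 when its second probe, below background on both arrays, was averaged in.

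The 3 scaffolds of the multisynthetase complex were AIMP1 at 0.17, AIMP2 at 0.09 and EEF1E1 at 0.09, and 0 of them reached 0.32. AIMP1, spotted 9 times on the NC array and 8 times on the THOC2 siRNA array after outliers were removed, had scaled log2 values of 4.29 to 4.39 and 4.45 to 4.59. Its scaled spots did not overlap, at a difference under the threshold. The share of all repeatedly spotted probes without overlap is not given here, and spots do not measure a second culture.

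Of the 6 genes that deliver charged tRNA or move the ribosome in the cytosol, 1 was higher by 0.32 or more (16.7%, against 12.5% of all genes) and 0 lower. Their median was 0.17 and came to between 0.033 and 0.057 under quantile, lowess, normexp and the authors' values. The higher gene was EEF2, the translocation factor, with a signal of 21527 on the NC array and 22395 on the other (0.37), and it fell short of 0.32 in 5 of 9 alternatives, down to 0.24. EEF1G, EEF1D and EEF1B2, subunits of the exchange factor, were at 0.24, 0.22 and 0.13. EEF1A1 and EEF1A2, which carry charged tRNA to the ribosome, were at 0.09 (6 probes) and 0.03. EEF1A1 has many near-identical copies in the genome, so its value is uncertain.

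Of the 13 mitochondrial partners and translation factors 12 were measured, with a median of 0.07, 1 higher by 0.32 or more (8.33%, against 12.5% of all genes) and 0 lower. GFM1, the mitochondrial translocation factor, was that gene, with signals of 937 and 1015 (0.42). It stayed past the threshold in 9 of 9 alternatives. With 1 gene each, the shares of these lists are near that of all genes.

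Proofreading and selenocysteine charging genes lay on both sides of 0. Of 8 genes, 7 were on the array and 6 measured on both, with a median of -0.02, 2 higher by 0.32 or more (33.3%, against 12.5% of all genes) and 1 lower (16.7%, against 9.67%). SEPSECS, which makes selenocysteine on its tRNA, was at 0.62 (50.1 and 62.2), and EEFSEC, its elongation factor, at 0.41 (62.6 and 67.2). PSTK, the kinase that acts before SEPSECS, was at -0.318, just short of the threshold, so PSTK and SEPSECS, successive steps of this route, had opposite signs. DTD2, which removes wrongly attached amino acids, was at -0.37 (63.6 and 39.7), its relative DTD1 at 0.06 and the selenoprotein factor SECISBP2 at -0.11. SEPSECS and DTD2 are dim, with a technical SD of 0.29, and EEFSEC (technical SD 0.11) is about as dim as DTD2. SEPSECS, EEFSEC and DTD2 each fell short of the threshold in 1 of 9 alternatives, where EEFSEC was at 0.17. TARSL2, a second threonyl enzyme, had 16.3 on the NC array and was not well above background on the other.

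Of the tRNA maturation and export list 19 of 20 genes were measured, with a median of 0.03, 3 higher by 0.32 or more and 0 lower. The 3 are 15.8% of the list, near the 12.5% of all genes, and its median fell below 0 under 5 of 9 alternatives. POP1 and RPP25, subunits of RNase P, which trims the 5′ end of tRNA, were at 0.40 (1129 and 1202) and 0.38 (81.0 and 85.3). ELAC2, which cuts the 3′ end, was at 0.32 as the mean of probes at 0.22 and 0.43, and stayed past the threshold in 3 of 9 alternatives.

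**Figure D5:**
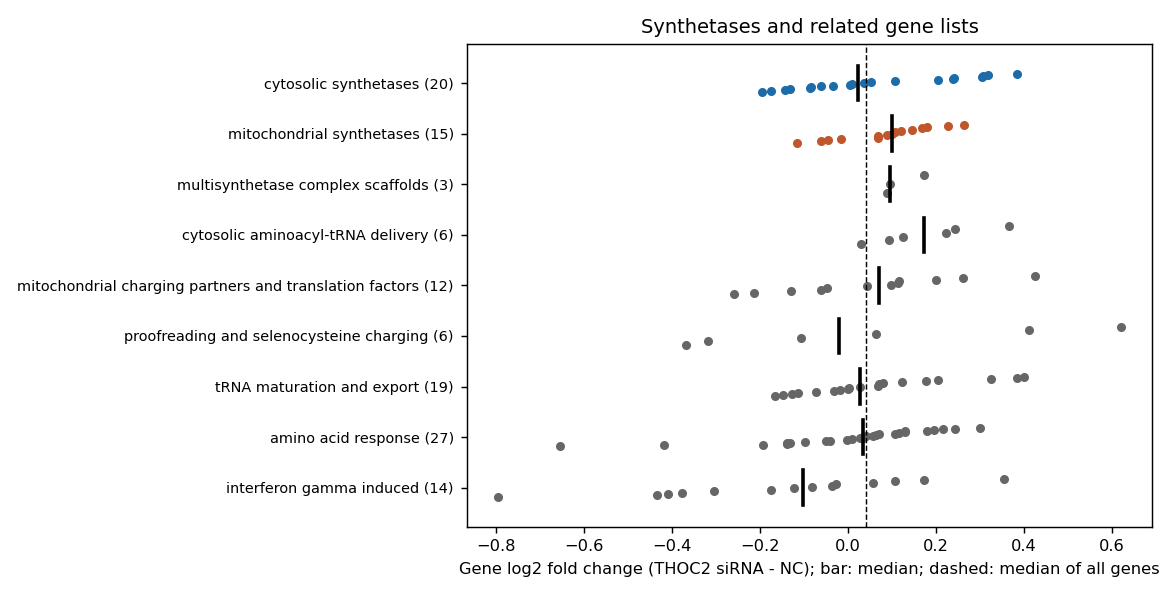
Gene log2 fold change (THOC2 siRNA minus NC, x axis) of the synthetases and of each related list, with a point per gene, a bar at the list median and a dashed line at the median of all genes, 0.040. The cytosolic synthetases lie between -0.20 and 0.39, much as the tRNA maturation list does (-0.17 to 0.40). The delivery and scaffold lists lie in narrower ranges. The mitochondrial partners reach lower, to -0.26, and so does the amino acid response list, to -0.65 (STC2). The proofreading and interferon gamma lists also do, to -0.37 and -0.80, the values of the dim genes DTD2 and CXCL11.

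The fold change of the synthetase probes moved with probe composition and signal. Over 40 probes on these 2 arrays, Pearson's r with GC content was 0.48 (Spearman's rho 0.52) and with signal 0.42 (rho 0.38), and genes are not independent replicates. For the 25 cytosolic probes r was 0.54 and 0.58, and for the 15 mitochondrial probes 0.17 and 0.26. Over all 22207 probes r was 0.15 and 0.03. The part of GC content and signal in the cytosolic values was not tested.

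Well above background were 42.3% of the NC array's probes and 39.4% of those on the other array, and 0 spots were saturated. Of 7 melanocyte lineage markers, 4 were measured on both arrays. SOX10 had signals of 6196 (NC) and 5196 (THOC2 siRNA), a log2 fold change of 0.06, and the brightest MITF probe 273.8 and 214.6 (-0.04). S100B was lower (199 and 102, -0.66) and DCT, near background, higher (18.02 and 24.45, 0.75). MLANA was below background on the NC array (2.94) and above it on the other (18.7), and PMEL and TYR were below it on both.

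Markers of other cell types were also read. Of 4 keratinocyte genes, KRT10 (32306 and 20623, -0.34) and KRT14 (83.9 and 104 for its brighter probe, 0.62) were measured on both arrays, and KRT5 and KRT1 were below background. Of 4 fibroblast genes, DCN was higher by more than 2-fold (62.4 and 149, 1.56), and COL1A1, COL1A2 and LUM were below background. Of 3 endothelial genes, PECAM1 was measured on both arrays (16.2 and 17.6, 0.43), while VWF and CDH5 were above background only with NC. The leukocyte markers PTPRC (27.4 and 28.9 for its brightest probe), CD3E (25.3 and 37.4, 0.87) and CD14 (24.04 and 25.03) were dim on both arrays. The part of all these signals in the synthetase values was not tested.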

How the data were processed

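RNA of A375 cells was measured on 2 Agilent SurePrint G3 v3 arrays, 1 for NC and 1 for THOC2 siRNA. The scanner files, deposited by the authors, give the intensity of each spot after Feature Extraction 10.7.1.1 had subtracted its background. The authors also deposited normalized log2 values, whose sorted values are nearly the same on both arrays (quantile normalization), and a comparison table with fold changes, which was not used. Its probe annotation gives hg19 positions, and exons were not analysed here.

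Control spots and outliers (147 on the NC array and 168 on the other) were left out. Repeated spots were averaged per probe as log2 values, and each array's 75th percentile over all 58199 probes was subtracted. Probes well above background on both arrays (22207, 38.2%) were compared, and a gene's value is the mean over such probes. Calls were at 2-fold and, as a second rule, a log2 fold change of 0.32. On simulated data, 200 of 200 changed probes were recovered with 1 false call. That checks the calculation only, and says nothing about spread between cultures, which these 2 arrays do not measure. One cell type marker is not reported here. The methods' Student's test needs replicates and was not run.

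Every member is named, in full the 5 largest of each set and any probe past 0.32 or gene whose probes lie over 0.5 apart. IARS, GARS, WARS, NARS and others given with signals were chosen after their values were seen. All genes of related lists of up to 10 genes are named, and of longer lists those past 0.32. The members and lists were chosen with earlier results of these data known. Alternatives were other percentiles, quantile normalization, lowess (span 0.3) and block-wise centring, and the authors' values. Normexp (offset 50) was followed by quantile normalization, so quantile, normexp and the authors' values are related settings. No or a looser background filter and the brightest probe of a gene were also tried. Tools were Python 3.11.15, numpy 2.4.6, pandas 2.3.3, statsmodels 0.14.6, matplotlib 3.10.9, R 4.3.3 and limma 3.58.1.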

Additional observations from a re-analysis of the deposited data

How the results depend on the processing

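No paired analysis was possible because each condition has 1 array, and no replicate could be left out. No called synthetase or THOC2 value reversed. Of the 15 genes of related lists past 0.32, 5 stayed past it in 9 of 9 alternatives, and 1 value reversed, that of IRF9, which went from -0.43 to 0.33 with no background filter. The cytosolic median (0.022) became -0.058 after quantile normalization, -0.052 after lowess, -0.058 after normexp, -0.042 after block centring and -0.058 with the authors' values, and the mitochondrial median (0.10) became 0.036 after normexp and 0.041 with the 75th percentile of probes on both arrays. The count of member probes higher by 0.32 or more went from 1 to 0 under quantile, lowess, normexp and the authors' values, and QARS is then between 0.30 and 0.32. The 2 lower probes stayed 2 in 8 of 9 alternatives and were 3 with no background filter, which also moved the median of all genes from 0.040 to 0.24. No member probe passed 2-fold in any alternative. Of 315 alternative member gene values, 217 stayed within the technical SD. THOC2 (-1.03) became -0.54 after normexp. The scaffold median (0.09) became 0.034, 0.020 and 0.035 under lowess, normexp and the authors' values. The delivery median (0.17) became 0.046, 0.051, 0.033 and 0.057 under quantile, lowess, normexp and the authors' values. The median of the mitochondrial partners became -0.0036 after block centring, that of proofreading -0.32 with no background filter and that of tRNA maturation -0.035 after lowess (-0.029, -0.023, -0.029 and -0.031 under quantile, normexp, the authors' values and the 75th percentile of probes on both arrays). The amino acid response median (0.03) became -0.030, -0.032, -0.037, -0.029 and -0.030 under quantile, lowess, normexp, block centring and the authors' values, and -0.024 with the 75th percentile of probes on both arrays. The causes were not tested. Values of dim probes are limited by signal over background, and the number of arrays limits the precision of all.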
